A study of Mus musculus with 15 samples.

Results

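Muscle of mice labelled as Pdgfrb knockout was compared directly with muscle of mice labelled as carrying the Pdgfrb D489V allele. The series holds 15 samples, and the comparison used the 10 samples of these 2 groups, 5 in each. All samples were labelled as skeletal muscle of male mice aged 2 months, and polyadenylated RNA was sequenced. The series' design text describes both alleles as myogenin-specific, and calls the second one constitutively active. Myogenin is a transcription factor of differentiating muscle cells, so both alleles are described as acting in the muscle lineage, while other cells of the tissue would keep their own Pdgfrb. The 5 control mice, labelled wild type, were used only as a reference for the spread between mice. The labels name no muscle, strain, litter, Cre control or sequencing batch. P-values therefore measure the spread between these samples and nothing else. In what follows, knockout and D489V stand for the libraries so labelled.

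Pdgfrb encodes the beta receptor for platelet-derived growth factor, a tyrosine kinase that dimerises when it binds ligand. The active receptor recruits adaptors and phosphatases such as Grb2 and Ptpn11, signals through the ERK and PI3 kinase pathways, and raises early response genes whose products include feedback inhibitors. In skeletal muscle the gene is best known in the mural cells that wrap capillaries, in smooth muscle of vessels and in fibroblasts, and Pdgfb from endothelium is the ligand that holds mural cells to vessels. Muscle fibres hold most of the RNA of the whole tissue.

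The deposited values were gene counts normalized and rounded by the authors, and they are called normalized counts here. Their sum was 30606981 to 36489777 over the 10 samples, with 20799 to 23783 genes above 0 in each. Of 55536 genes, 15299 were tested, those that reached 10 in 5 or more of these samples. Acta1, Ckm, Ttn and Myh4, which define skeletal muscle, were read at high levels in every sample, Acta1 at 939485 to 1400228. Knockout 3 stood apart from its labelled sex: Xist, the RNA of the inactive X chromosome, read 3165 in it against at most 101 in the other 9 samples, and the Y-linked Ddx3y read 367 against 1437 to 3887. The summed level of 11 B cell markers was 1406 to 2347 in D489V and 1506 to 13369 in knockout, highest in knockout 4. Relative to each gene's mean over the 15 samples, their median was -3.12 and -2.13 log2 units in knockout 1 and 2. It was 3.25, 5.02 and 2.88 in knockout 3 to 5 and -1.23 to 0.36 in D489V. Summed T cell markers were 65 and 50 in knockout 1 and 2, 1002, 2060 and 450 in knockout 3 to 5, and 83 to 178 in D489V. The summed level of 14 slow fibre genes was 57100 and 61675 in knockout 1 and 2 and 222875 to 288456 in knockout 3 to 5. In D489V it was 84607 to 113717, except in D489V 3 with 288029. These markers thus differed within each group, and their part in the differences below was not tested. For most gene groups, counts are also given without the libraries that stand apart.

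The 2 groups differed widely. With limma on log2(value + 1) and a Benjamini-Hochberg adjusted p under 0.05, which is what called means here, 3181 of 15299 genes (20.8%) were called. Of these, 1599 (10.5%) were higher and 1582 (10.3%) lower in knockout than in D489V, and an unadjusted p under 0.05 was reached by 5766 genes. The largest differences were mostly in one direction: of 602 called genes with an absolute log2 difference above 1, 463 were lower and 139 higher in knockout. The median absolute difference of the called genes was 0.59, and the median difference over all tested genes was 0.0004. Without knockout 3 the count was 2273. It fell to 1398 without D489V 1, 1526 without D489V 2 and 1989 without D489V 3. With both samples numbered 3 left out, 1589 genes were called.

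The called genes were not spread evenly over gene groups. Of 45 lists of genes for cell types, signalling and muscle function, the endothelial, immediate early, Notch, ERK feedback, erythroid, Schwann cell and adipocyte lists had most of their called members lower in knockout. The chaperone, unfolded protein response and dystrophin complex lists had most of theirs higher. Counts are given for each list below, beside 10.5% of all tested genes called higher and 10.3% called lower, and no list was tested as a set.

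**Figure D1:**
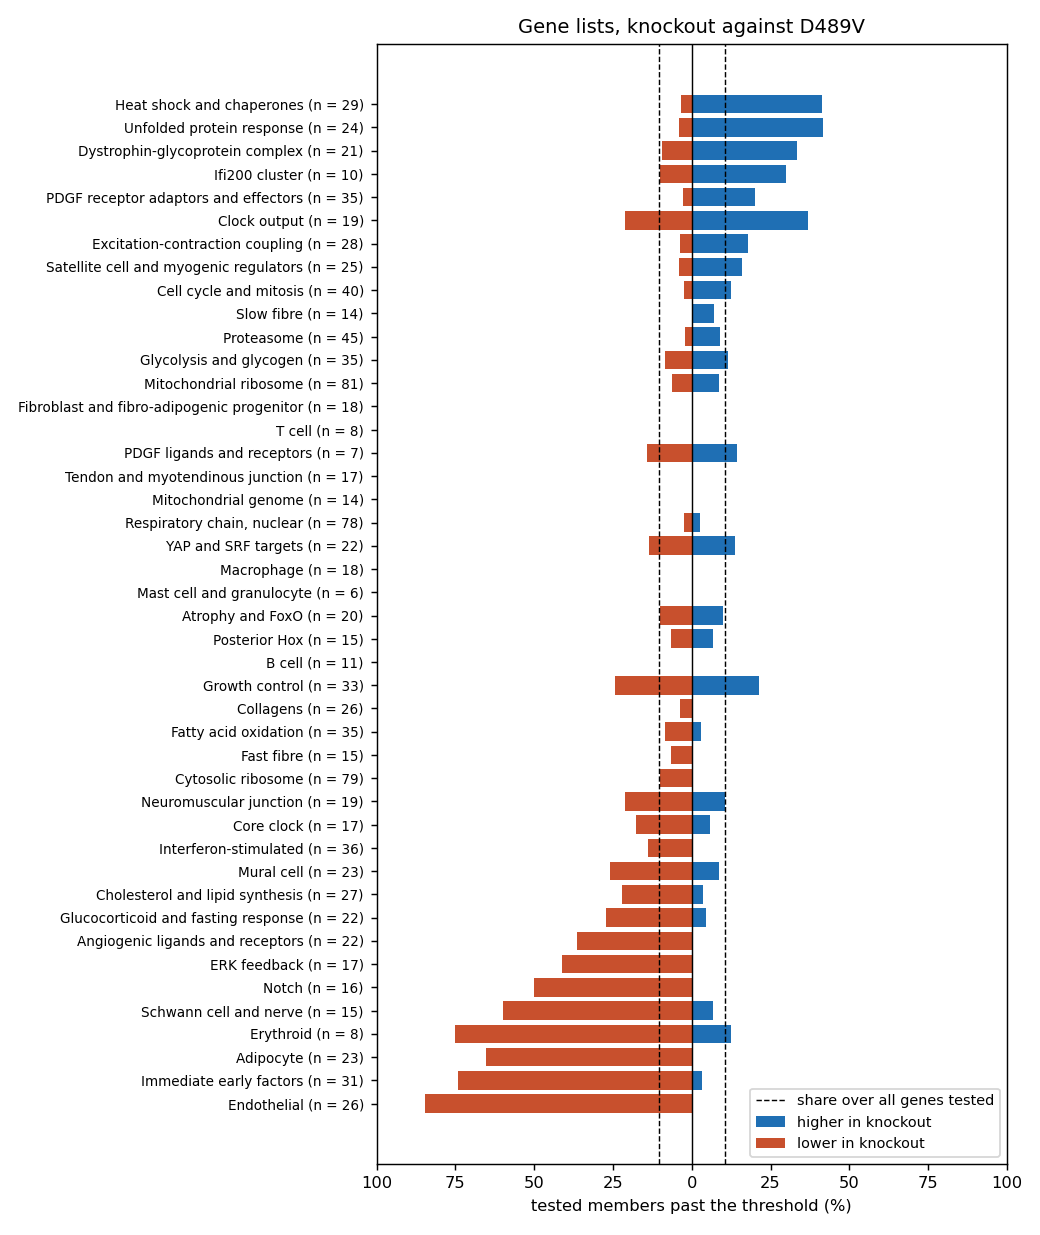
Share of the tested members of each gene list called higher in knockout (blue, to the right) or lower in knockout (orange, to the left) than in D489V, in percent, for the lists with at least 5 tested members (n). Dashed lines mark 10.5% and 10.3%, the shares over all 15299 genes, and the endothelial list reaches 22 of 26 members on the lower side with none on the higher side.

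Pdgfrb (ENSMUSG00000024620, GRCm38 chromosome 18, 61045150 to 61085061, plus strand), a protein-coding gene, was detected in each library. It read 1475, 1628, 1138, 1339 and 958 in knockout 1 to 5 and 820, 828, 1062, 849 and 970 in D489V 1 to 5. Controls held 1673 to 1848, above all 10 samples. The knockout mean was 1308 ± 266 (SD, n = 5) and the D489V mean 906 ± 106 (SD, n = 5), a log2 difference of 0.51 and a standard error of 0.14. The limma adjusted p was 0.0258 and the exact two-sided permutation p 0.0238. The groups overlapped, since knockout 5 lay below D489V 3 and 5. The call was lost without knockout 1 (limma adjusted p 0.0543), D489V 1 (0.0685) or D489V 2 (0.0669). Whole-muscle RNA of a gene that mural cells and fibroblasts also read does not check a deletion confined to myogenin-expressing cells, and the D489V label concerns a sequence change that gene counts do not show. The level of Pdgfrb therefore does not tell which allele a library carried.

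Among the other 6 genes of the family, Pdgfb was the one that passed. Pdgfb, the ligand made by endothelium, read 1052, 1088, 793, 914 and 1076 in knockout 1 to 5 and 1372, 1576, 1375, 1259 and 1194 in D489V 1 to 5. Every knockout sample lay below every D489V sample, by 0.46 on the log2 scale for the means (standard error 0.109, limma adjusted p 0.0152). Controls, at 1537 to 1642, lay above every knockout sample and above every D489V sample except D489V 2, which lay within their range. Pdgfra, the alpha receptor of fibroblasts, read 371 to 662 in knockout and 674 to 870 in D489V, without overlap, but its difference of -0.43 missed the threshold (limma adjusted p 0.0628). Pdgfra in knockout 3, at 371, was far below the other knockout samples, at 607 to 662. Pdgfa, Pdgfc, Pdgfd and Pdgfrl differed by -0.33, 0.08, -0.13 and -0.37, and none passed the threshold.

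Genes for the proteins that carry the receptor's signal differed in both directions. Of 35 tested adaptors and effectors, 7 were called higher in knockout and 1 lower, with a median difference of 0.02. Ptpn11, the phosphatase SHP2, which activates Ras downstream of the receptor, read 4522, 4106, 3924, 4435 and 4504 in knockout 1 to 5. In D489V it read 2135, 2310 and 2180 in samples 1 to 3 and 3280 and 3276 in samples 4 and 5. Every knockout sample was higher, by 0.73 on the log2 scale (standard error 0.133, limma adjusted p 0.00578), but D489V 4 and 5 lay nearer to knockout than the other D489V samples did, and controls spanned 2145 to 4472. Mapk3, which encodes ERK1, went the other way, with 575 to 798 in knockout and 929 to 1176 in D489V (-0.59, limma adjusted p 0.00662). Grb2, Crk, Crkl, Sos1 and Map2k1 were also called higher. These rested on single libraries: the list had 2 or 3 calls instead of 8 without knockout 1, 3, 4 or 5, or without D489V 1, 2 or 3.

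The ERK feedback genes, which the pathway itself raises and whose products dampen it, were lower in knockout in every call. Of 17 tested, 7 were called lower and 0 higher by limma, with a median difference of -0.54, and at an unadjusted p under 0.05 there were 8 and 0. They were Errfi1, Dusp1, Spred2, Spry4, Spry2, Phlda1 and Dusp6. Errfi1 (chromosome 4, 150853919 to 150868892), an inhibitor of the EGF receptor, read 845, 1083, 1077, 983 and 1064 in knockout and 1674, 1960, 2094, 2088 and 1982 in D489V. The lowest D489V sample was well above the highest knockout sample, and the difference was -0.96 and a standard error of 0.0952 (limma adjusted p 4.40e-04). Dusp1, a phosphatase of the MAP kinases, read 2089 to 3157 in knockout and 3860 to 5583 in D489V, a difference of -0.80 (limma adjusted p 0.004). Controls held Errfi1 at 902 to 1599 and Dusp1 at 2859 to 3495, overlapping knockout and below all D489V samples. Dusp6 and Spred2, at 480 to 565 and 134 to 283 in knockout, lay below their D489V samples at 652 to 804 and 328 to 379. The number called lower was 6 without knockout 3, 8 without D489V 3 and 5 without both.

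Immediate early factors were lower in knockout across most of their list. These transcription factors rise within minutes of growth factor, stress or mechanical stimuli, and of 31 tested, 23 were called lower and 1 higher in knockout, with a median difference of -0.78. Fos (chromosome 12, 85473890 to 85477273) read 523, 695, 301, 435 and 529 in knockout and 1682, 1092, 2295, 1902 and 1581 in D489V. The groups did not overlap, and the difference was -1.79 (standard error 0.224, limma adjusted p 0.00155). Controls, however, spanned both groups for Fos: controls 1 and 2 held 1504 and 2109, while controls 3 to 5 held 423 to 683. Fosb differed by -2.09, with 45 to 188 in knockout and 262 to 546 in D489V, and Egr1 by -1.65, with 272 to 718 and 991 to 2085. For both, controls 1 and 2 again lay among or above the D489V samples and controls 3 to 5 at the knockout level. Junb read 454 to 694 in knockout and 1267 to 1661 in D489V (-1.31, limma adjusted p 5.30e-04), and Klf2, a factor that endothelium raises under flow, 434 to 946 and 1337 to 2621 (-1.50, limma adjusted p 0.00307). Of the 24 called genes, 8 had a group difference above the whole range of the controls. The single gene in the opposite direction was Nr4a3, an orphan nuclear receptor that muscle raises with exercise. Nr4a3 read 180, 182, 674, 897 and 585 in knockout and 96, 117, 129, 206 and 130 in D489V (1.64, limma adjusted p 0.0226). Knockout 1 and 2 lay inside the D489V range, and the call was lost without knockout 5 (limma adjusted p 0.0523), D489V 1 (0.0617) or D489V 2 (0.0557). Of the list, 20 members were called lower without knockout 3, 18 without D489V 3 and 16 without D489V 1.

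**Figure D2:**
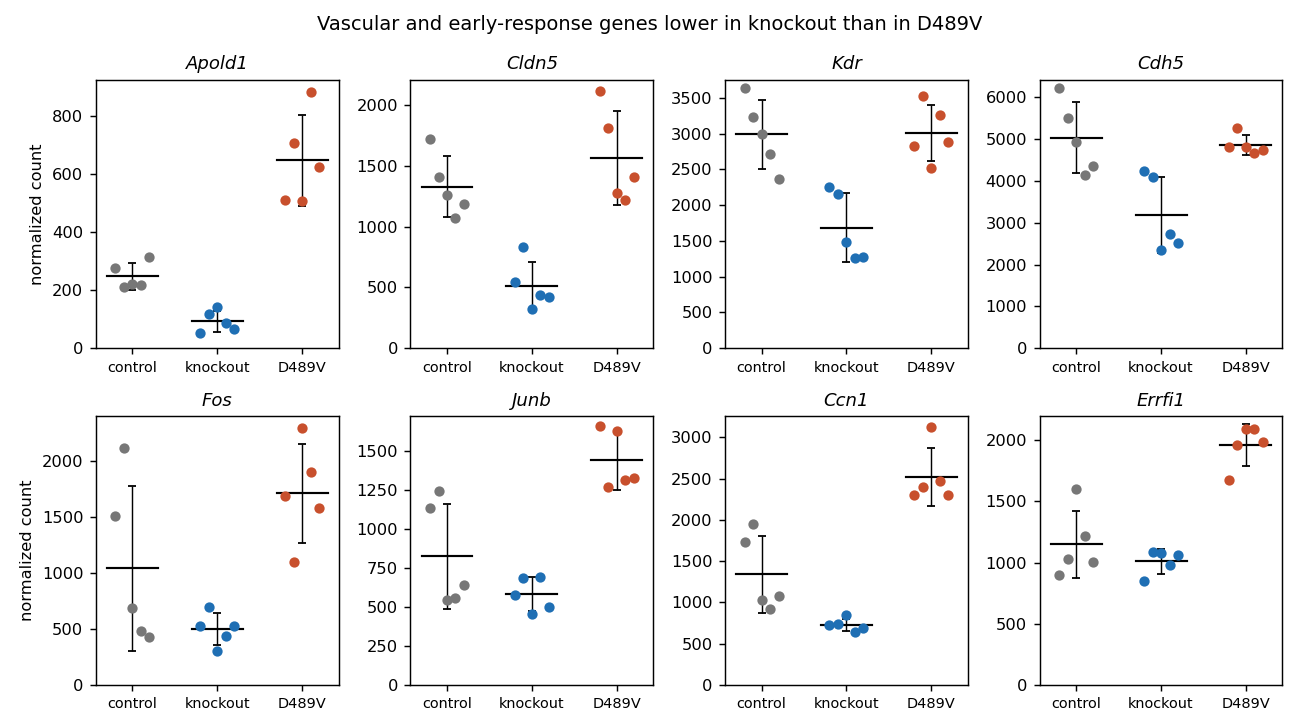
Normalized counts of 8 genes in the 5 control, 5 knockout and 5 D489V samples, where each point is 1 mouse, the horizontal line is the mean and the bar its SD. For every gene shown the knockout points lie below all D489V points, while the control points of Fos run from 423 to 2109 and cover most of both groups.

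Promoters of the early response genes were examined for the elements that ERK-driven factors are known to bind. The cyclic AMP response element, TGACGTCA, is bound by CREB, which kinases downstream of ERK phosphorylate. The CArG box was searched as the serum response element bound by SRF. Each was searched on both strands in the 250 bases before the RefSeq start (GRCm38.p6, 1 start a gene), and the CRE occurred in 1.65% of 27025 promoters and in 2.66% of 11061 promoters of tested genes. It was in 2 of the 13 ERK feedback promoters present in the table, Dusp1 and Errfi1, both among the 5 of called members, and in 1 of 18 called immediate early promoters, Btg2. The CArG box occurred in 1.14% of the promoters of tested genes. It was in 1 of those 18, Zfp36, and in 0 of the 5 called ERK feedback promoters. Among the YAP and SRF targets described below, 3 of 16 promoters held it. Of the 24 called immediate early genes, only these 18 had a promoter to search, and elements outside the 250 bases could not be found. The Dusp1 window shown is chr17:26508473-26508622 on the minus strand, that of Errfi1 chr4:150854920-150855069 on the plus strand, and that of Zfp36 chr7:28379229-28379378 on the minus strand. They are the 150 bases before the start, written 5′ to 3′ along the gene, with the match in capitals.
Dusp1: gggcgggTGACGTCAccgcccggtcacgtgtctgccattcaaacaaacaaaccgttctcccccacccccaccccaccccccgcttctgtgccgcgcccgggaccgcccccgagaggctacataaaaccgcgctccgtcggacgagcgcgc
Errfi1: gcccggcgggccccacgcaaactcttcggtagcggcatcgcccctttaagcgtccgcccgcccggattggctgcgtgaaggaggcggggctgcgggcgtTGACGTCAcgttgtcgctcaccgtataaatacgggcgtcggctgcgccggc
Zfp36: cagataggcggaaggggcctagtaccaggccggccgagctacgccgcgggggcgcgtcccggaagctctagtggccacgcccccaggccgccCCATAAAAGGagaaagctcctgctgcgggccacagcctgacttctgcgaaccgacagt
The match is a palindrome in Dusp1 and Errfi1, far from the start in Dusp1 and nearer to it in Errfi1. Zfp36, which encodes an RNA-binding protein that speeds the decay of inflammatory messages, read 510 to 914 in knockout and 1274 to 1883 in D489V (-1.18, limma adjusted p 0.0021). No binding was measured in these samples. The YAP and SRF list was built from known targets of those factors, and the ERK feedback list from genes that the pathway raises. The matches therefore describe the lists and not these data.

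Targets of YAP and SRF, the factors that answer to cell tension, did not move as one group. Of 22 tested, 3 were called higher and 3 lower in knockout, with a median difference of -0.01. Ccn1 (ENSMUSG00000028195, chromosome 3, 145646976 to 145649981, minus strand), a secreted matrix protein of angiogenesis, read 724, 735, 842, 639 and 686 in knockout and 2304, 2397, 3130, 2475 and 2302 in D489V. The controls, at 919 to 1949, lay between the groups without touching either. The means were 725 ± 75.3 (SD, n = 5) and 2522 ± 348 (SD, n = 5), a log2 difference of -1.79 and a standard error of 0.105 (limma adjusted p 4.98e-06). Amotl2, a junction protein that binds YAP, read 527 to 811 in knockout, 909 to 1190 in controls and 1371 to 1511 in D489V, again in 3 separate ranges (-1.05, limma adjusted p 0.00101). Ankrd1, a muscle protein of the sarcomere raised by strain, read 449, 349, 384, 147 and 152 in knockout and 497 to 628 in D489V (-1.03, limma adjusted p 0.0295). Knockout 4 and 5 were low for Ankrd1, and the call was lost without either (limma adjusted p 0.0524 and 0.0601) or without D489V 1, 2 or 3 (0.0661, 0.0623 and 0.055). Amotl1, Tead1 and Vcl were the members called higher, by 0.50, 0.50 and 0.59. The list had 6 calls without knockout 3 and 4 without D489V 3.

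Endothelial genes were lower in knockout than in D489V almost throughout the list. Of 26 tested endothelial markers, 22 were called lower and 0 higher by limma (23 and 0 at an unadjusted p under 0.05), with a median difference of -0.58, against 10.3% called lower over all genes. Fewer endothelial cells and less of these RNAs per cell cannot be told apart in whole muscle. Apold1 (ENSMUSG00000090698, chromosome 6, 134981718 to 134986836, plus strand), an early response gene of vascular endothelium, read 51, 119, 140, 85 and 65 in knockout 1 to 5. It read 511, 705, 507, 882 and 624 in D489V 1 to 5 and 209 to 313 in controls. The 3 groups did not overlap, and the means of 92 ± 37.1 (SD, n = 5) and 646 ± 156 (SD, n = 5) were 7.27-fold apart on the log2(value + 1) scale (log2 difference -2.86, standard error 0.26, limma adjusted p 2.55e-04). Cldn5, the tight junction protein of endothelium, read 548, 835, 318, 435 and 423 in knockout and 2119, 1812, 1277, 1216 and 1406 in D489V. Every knockout sample was lower (-1.66, standard error 0.234, limma adjusted p 0.00243), and the controls, at 1069 to 1719, overlapped D489V. Egfl7, a protein secreted by endothelium, differed by -0.92, with 821 to 1203 in knockout and 1403 to 2441 in D489V. Its exons overlap those of Gm20532 on the same strand and of Agpat2 on the other.

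The structural endothelial genes showed smaller differences of the same sign. Cdh5, the cadherin of endothelial junctions, read 4246, 4089, 2354, 2736 and 2511 in knockout and 4675 to 5256 in D489V (-0.65, limma adjusted p 0.0172). Pecam1 read 1974 to 3033 and 3372 to 3862 (-0.48, limma adjusted p 0.0131), and the transcription factor Erg 278 to 461 and 538 to 749 (-0.84, limma adjusted p 0.00713). For all of these, knockout 1 and 2 lay nearer to D489V than knockout 3 to 5 did. Control values of Cdh5, at 4131 to 6224, and of Pecam1, at 3084 to 4061, covered the D489V range. The summed level of the 26 markers was 39094 to 56438 in knockout, 72269 to 96378 in D489V and 49638 to 98719 in controls. It includes Fabp4, which adipocytes also express. Fabp4 alone read 5803 to 10685 in knockout, 14460 to 41635 in D489V and 5430 to 35760 in controls. The summed level therefore depended heavily on this gene. Of the 22 genes, 10 differed by more than the range of the controls. The number called lower was 19 without knockout 3, 18 without D489V 3 and 13 without both.

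Angiogenic ligands and receptors were lower in knockout where they were called. Of 22 tested, 8 were called lower and 0 higher by limma, with a median of -0.29, and at an unadjusted p under 0.05 there were 11 and 1. Kdr, the main receptor for VEGF on endothelium, read 2246, 2158, 1486, 1260 and 1278 in knockout and 2832, 3520, 2516, 3258 and 2886 in D489V (-0.87, standard error 0.172, limma adjusted p 0.00778). Tek and Tie1, the receptors of the angiopoietin pathway, differed by -0.54 and -0.53. Angpt2, the angiopoietin that endothelium secretes when vessels remodel, read 70 to 101 in knockout and 132 to 178 in D489V, without overlap (-0.83, limma adjusted p 0.00459). Vegfc, the ligand of lymphatic growth, read 27 to 68 and 77 to 129 (-1.22, limma adjusted p 0.0136). Nrp1, Nrp2 and Flt1 completed the 8. The count was 5 without D489V 2, 5 without D489V 3 and 4 without both samples numbered 3.

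Notch signalling, which patterns arteries and holds satellite cells quiescent, showed the same direction. Of 16 tested genes, 8 were called lower and 0 higher by limma, with a median of -0.44, and at an unadjusted p under 0.05 there were 11 and 1. The ligand Dll4, of arterial and tip endothelium, read 389, 463, 227, 330 and 313 in knockout and 580, 736, 775, 516 and 448 in D489V (-0.83, limma adjusted p 0.0154), with knockout 2 above D489V 5 as the single crossing. Dll1 read 163 to 257 and 285 to 525 (-0.87, limma adjusted p 0.00983). Nrarp, a target that limits the pathway, read 192 to 281 in knockout and 372 to 623 in D489V, without overlap (-1.04, standard error 0.158, limma adjusted p 0.00309). Among the receptors, Notch1 read 459 to 685 and 818 to 938 (-0.64, limma adjusted p 0.00513). Controls of Dll4, at 443 to 795, covered the D489V range, and knockout 2 was the only knockout sample that reached them. Controls of Nrarp, at 297 to 602, lay above every knockout sample and overlapped D489V. The targets Hey2 and Hes1 were called, by -1.26 and -0.43, and Hey2 missed the threshold without D489V 1 (limma adjusted p 0.0545). The count was 6 to 9 when any 1 sample was left out.

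Markers of mural cells, the cell type in which Pdgfrb is best known, were lower in knockout where they were called, apart from Pdgfrb itself and Abcc9. Of 23 tested markers, 6 were called lower and 2 higher in knockout, with a median of -0.37. An unadjusted p under 0.05 was reached by 12 lower and 2 higher, and 21 of the 23 had a difference below 0. Kcnj8, a potassium channel subunit of pericytes, read 490, 518, 464, 463 and 449 in knockout and 751, 714, 878, 689 and 735 in D489V. The groups were far apart relative to their spread (-0.66, standard error 0.0891, limma adjusted p 0.00215), and the controls, at 681 to 794, lay with D489V. Cspg4, the NG2 proteoglycan of pericytes, read 492 to 671 in knockout and 773 to 930 in D489V, without overlap (-0.62, limma adjusted p 0.00392), with controls at 598 to 770. Tagln, of smooth muscle, read 906 to 1624 and 1757 to 2681 (-0.72, limma adjusted p 0.0141). Rgs5, an abundant pericyte gene, read 8654 to 10398 and 9879 to 13769 and missed the threshold (-0.28, limma adjusted p 0.0791). The members called higher were Pdgfrb and Abcc9, which muscle fibres also express. The summed level of the list was 125191 to 179708 in knockout and 151620 to 160460 in D489V, and the list's median level was lowest in knockout 3. Leaving out single libraries reduced the 8 calls to 5 (knockout 3, knockout 4 or D489V 3), 4 (D489V 1) or 3 (D489V 2), and the list had 4 without both samples numbered 3.

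Most erythroid genes were lower in knockout by more than the range of the controls. Of 8 tested, 6 were called lower and 1 higher, with a median of -1.62, and 7 of the 7 called differed by more than the controls did among themselves. Hba-a1, an alpha globin, read 2518, 1439, 1155, 2559 and 2153 in knockout and 5113, 8021, 4671, 7849 and 5088 in D489V (-1.67, standard error 0.238, limma adjusted p 0.00247). Controls, at 1597 to 3217, lay with knockout. Alas2, the enzyme of haem synthesis in red cell precursors, read 61 to 173 in knockout, 232 to 661 in D489V and 116 to 181 in controls (-1.67, limma adjusted p 0.00715). Hba-a1 and Hba-a2, and Hbb-bs and Hbb-bt, are near-identical copies whose reads the authors' counting could split, so their separate values are uncertain. The gene in the opposite direction was Car2, a carbonic anhydrase that muscle and other cells also make, higher by 0.69. The number called lower was 6 without knockout 3, without D489V 3, without both, and without D489V 1.

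Schwann cell genes, which encode the myelin of nerve in the muscle, were mostly lower in knockout, with a single D489V library far above the rest. Of 15 tested, 9 were called lower and 1 higher, with a median of -1.02. Sox10, the factor that specifies the lineage, read 92, 83, 150, 134 and 148 in knockout and 248, 235, 481, 169 and 231 in D489V (-1.11, standard error 0.262, limma adjusted p 0.0152). D489V 3 was far above its own group, but the other 4 D489V samples also lay above every knockout sample. Mbp, a structural protein of myelin, read 978 to 1509 in knockout and 1721 to 7343 in D489V (-1.08, limma adjusted p 0.0406). The call of Mbp was lost without knockout 1, 2, 3 or 5, or without D489V 1 or 2, with limma adjusted p of 0.0609 to 0.0762. Controls held Mbp at 1270 to 2072 and Sox10 at 99 to 214, across both groups. The summed level of the list was 7209 to 11022 in knockout, 13718 to 16815 in D489V 1, 2, 4 and 5, and 53989 in D489V 3. Nefh, a neurofilament of axons and not of Schwann cells, was the gene called higher, at 49 to 98 in knockout and 19 to 30 in D489V (1.51, limma adjusted p 0.00309). The number called lower was 10 without D489V 3, 5 without knockout 3 and 4 without D489V 1, and the list had 6 calls in all without knockout 5.

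Adipocyte genes had the largest median difference of the cell type lists and varied widely among controls. Of 23 tested, 15 were called lower in knockout and 0 higher by limma (17 and 0 at an unadjusted p under 0.05), with a median of -1.83, but the median range of the controls for these genes was 3.58 and none of the 15 differed by more than its own control range. Adipoq, the hormone adiponectin, read 950, 1118, 535, 760 and 955 in knockout and 5106, 3414, 1294, 4177 and 4290 in D489V (-1.99, limma adjusted p 0.004). D489V 3 lay close to knockout, and controls 4 and 5, at 179 and 351, lay below every sample of both groups while controls 1 to 3 held 1824 to 2580. Cfd, the adipocyte protease adipsin, read 4002 to 5778 in knockout and 11454 to 41530 in D489V (-2.31, limma adjusted p 0.00105), with controls from 1064 to 22480. Fasn, fatty acid synthase, read 2449 to 10275 and 9630 to 51884 (-2.67, limma adjusted p 0.00589). Whole-muscle samples carry varying amounts of fat, and its part in these differences was not tested. The summed level of the list was 114587 to 174161 in knockout, 186192 to 355905 in D489V and 122578 to 309927 in controls. Lower calls numbered 14 without knockout 3, 17 without D489V 3 and 17 without both.

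Several of the genes with the largest differences of all followed the same sample pattern. Adrb3, the adrenergic receptor of adipocytes, read 120 to 305 in knockout and 375 to 2037 in D489V (-2.73, limma adjusted p 0.00347). Elovl6, which elongates fatty acids, read 81 to 330 and 594 to 1870 (-2.72, limma adjusted p 0.00325), and Slc25a1, the mitochondrial citrate carrier that feeds lipid synthesis, 322 to 824 and 1331 to 4766 (-2.63, limma adjusted p 0.00203). Aspg, Marc1, Oxtr and Snhg11 differed by -4.04, -3.01, -2.79 and -2.71. For each of these 7 genes D489V and knockout did not overlap, but controls 4 and 5 lay near knockout level or below and controls 1 and 2 within or near the D489V range. Aspg, for instance, read 676 and 517 in controls 1 and 2 and 46 and 15 in controls 4 and 5.

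**Figure D3:**
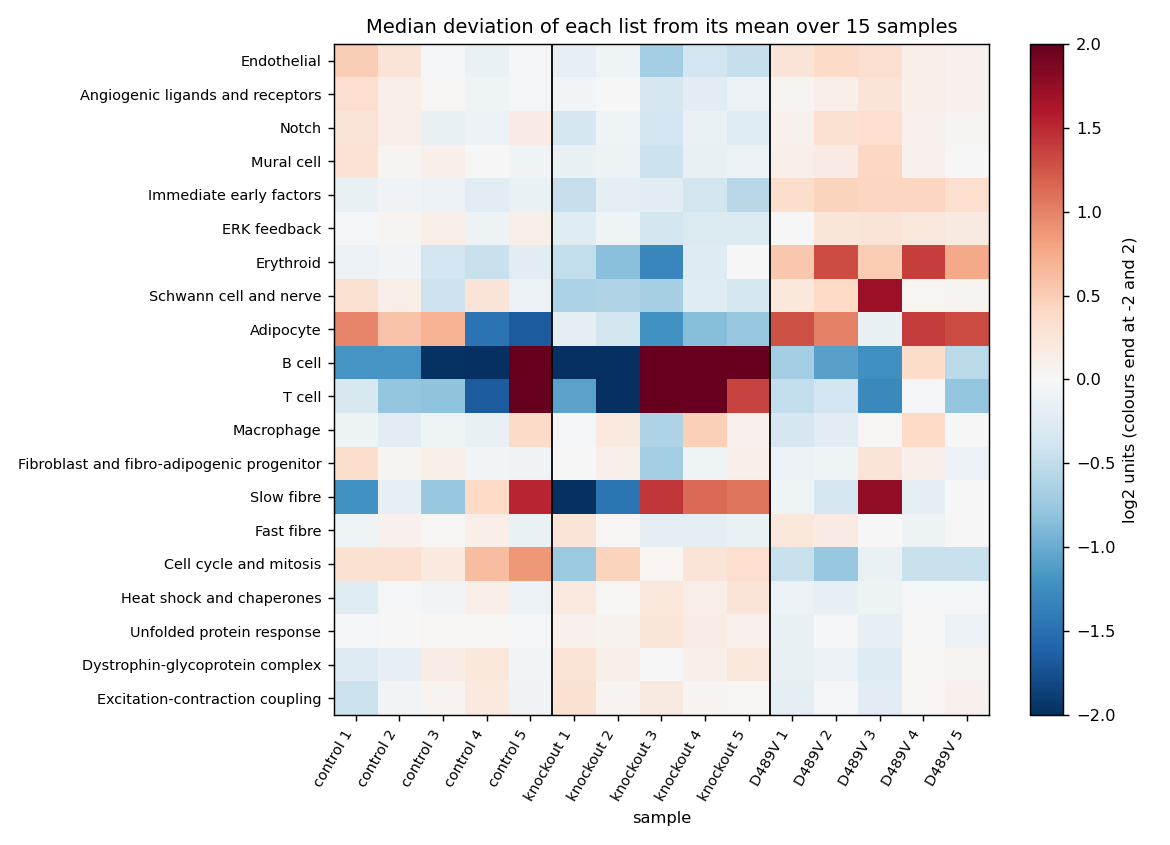
Median deviation of each gene list in each of the 15 samples, in log2 units from each gene's mean over the 15 samples (red above, blue below, colours ending at -2 and 2), with samples in columns and lists in rows. The immediate early row is at 0.33 to 0.45 in all 5 D489V samples and at -0.19 to -0.55 in all 5 knockout samples, whereas the B cell, T cell and slow fibre rows differ between samples of the same group.

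Of 24 tested genes of the unfolded protein response, which the endoplasmic reticulum raises when its folding capacity is short, 10 were called higher in knockout, 1 was called lower and 13 were not called, with a median of 0.23, against 10.5% called higher over all genes. Hspa5 (chromosome 2, 34771970 to 34777547), the chaperone BiP, read 6720, 7174, 8256, 8127 and 8519 in knockout and 4686, 4996, 5622, 6186 and 5451 in D489V (0.53, standard error 0.0996, limma adjusted p 0.00679). The controls, at 5494 to 7397, lay across both groups. Canx, Pdia6, Dnajc3 and Hsp90b1, which fold or trim proteins in the same compartment, differed by 0.49, 0.38, 0.43 and 0.43. Hsp90b1 read 3516 to 3793 in knockout and 2552 to 3015 in D489V, and Pdia6 2036 to 2514 and 1606 to 1861, both without overlap. Canx missed the threshold without D489V 1 (limma adjusted p 0.0513) or D489V 2 (0.0516). Asns, an enzyme of asparagine synthesis raised by the amino acid branch of the response, went the other way, at 48 to 84 in knockout and 99 to 217 in D489V (-1.24, limma adjusted p 0.00564). The number called higher was 6 without knockout 3, 7 without D489V 3, 5 without D489V 2 and 4 without D489V 1 or without both samples numbered 3.

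Some promoters of this list carry a known sequence element. The ER stress element, CCAAT and CCACG with 9 bases between them, on which ATF6 acts together with NF-Y, was searched on both strands of the 250 bases before each RefSeq start. It occurred in 0.118% of 27025 promoters and 0.145% of the 11061 promoters of tested genes. It was in 8 of the 21 unfolded protein response promoters present in the table (38.1%) and in 5 of the 9 of called members (55.6%). Those 5 were Hspa5, Canx, Pdia6, Dnajc3 and Hsp90b1. Calr, Creld2 and Syvn1 carry the element and were not called, with differences of 0.03, 0.22 and -0.13. The lists were built from known target genes of this response, so the match describes the list and not these data. Shown are the 150 bases before the start of the first 4, from GRCm38.p6, 5′ to 3′ along the gene with the element in capitals. The windows are chr2:34771940-34772089 (plus strand), chr11:50325674-50325823 (minus), chr12:17266439-17266588 (plus) and chr14:118937782-118937931 (plus).
Hspa5: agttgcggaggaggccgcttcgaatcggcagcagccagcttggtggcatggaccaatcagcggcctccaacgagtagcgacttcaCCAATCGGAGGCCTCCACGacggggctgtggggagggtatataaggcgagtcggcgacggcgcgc
Canx: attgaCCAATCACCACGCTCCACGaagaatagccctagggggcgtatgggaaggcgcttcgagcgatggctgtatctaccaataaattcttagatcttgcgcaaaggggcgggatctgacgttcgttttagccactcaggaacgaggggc
Pdia6: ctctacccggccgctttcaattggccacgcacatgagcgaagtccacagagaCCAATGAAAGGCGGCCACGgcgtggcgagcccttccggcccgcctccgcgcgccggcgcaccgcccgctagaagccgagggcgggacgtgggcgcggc
Dnajc3: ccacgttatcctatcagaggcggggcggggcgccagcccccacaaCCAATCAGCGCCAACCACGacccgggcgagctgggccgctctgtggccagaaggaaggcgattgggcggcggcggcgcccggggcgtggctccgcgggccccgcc
In each of the 4 the match reads in the direction of the gene, and the 9 bases between its fixed parts differ between the genes.

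Of 29 tested heat shock proteins and other chaperones, 12 were called higher in knockout, 1 was called lower and 16 were not called, with a median of 0.22. Hsph1, a nucleotide exchange factor of the Hsp70 family, read 3595, 2888, 3376, 3080 and 3452 in knockout and 1910, 2151, 1695, 2461 and 2215 in D489V (0.66, standard error 0.107, limma adjusted p 0.00392). Hspa4l read 192 to 249 and 77 to 162 (1.01, limma adjusted p 0.00867), and Chordc1, a partner of Hsp90, 1785 to 2282 and 1071 to 1599 (0.58, limma adjusted p 0.00726). None of these 3 overlapped between the groups, and for each the controls lay across both. The most inducible members did not share the direction: Dnajb1 was lower in knockout, at 267 to 328 against 363 to 503 (-0.51, limma adjusted p 0.0119), and Hspa1a and Hspa1b differed by -0.69 and -0.50 without passing the threshold. Hspa1a and Hspa1b are near-identical copies whose reads may be split. The heat shock element bound by HSF1, searched as GAA, TTC and GAA, or TTC, GAA and TTC, with 2 bases between them, was in 1 of 23 promoters of this list, Hspe1, and in 0 of 13 of called members, against 0.335% of the promoters of tested genes. The number called higher was 8 without knockout 3, 8 without D489V 3 and 7 without both, and the 13 calls fell to 8 without knockout 5 and to 7 without D489V 1 or 2.

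Genes of the muscle fibre membrane were mostly higher in knockout where they were called. The dystrophin complex links the fibre's cytoskeleton to its matrix, and of 21 tested members and partners, 7 were called higher and 2 lower, with a median of 0.29. Dysf, dysferlin of membrane repair, read 6683, 6311, 4464, 6238 and 5976 in knockout and 3933, 2818, 3116, 3253 and 3971 in D489V (0.79, standard error 0.129, limma adjusted p 0.00398). Knockout 3 was the lowest of its group and still above every D489V sample. Dmd itself read 2024, 1970, 2378, 1376 and 2000 in knockout and 1218 to 1515 in D489V (0.49, limma adjusted p 0.0229), and knockout 4 lay among D489V. Utrn, the homologue of dystrophin concentrated at the neuromuscular junction, was lower in knockout, at 725 to 815 against 968 to 1126 (-0.45, limma adjusted p 0.00437). The 9 calls became 8 without knockout 3, 6 without D489V 3 or without both, and 4 without D489V 1. Excitation-contraction coupling genes gave 5 higher and 1 lower of 28, and the list had 1 to 3 calls without knockout 1, 3, 4 or 5, or without D489V 1, 2 or 3.

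At the neuromuscular junction, Musk was higher and its activator Agrn lower in knockout. Of 19 tested genes, 2 were called higher and 4 lower. Musk, the receptor kinase that clusters acetylcholine receptors, read 99, 129, 230, 332 and 352 in knockout and 49, 47, 59, 92 and 102 in D489V (1.60, standard error 0.362, limma adjusted p 0.0134). Knockout 1 crossed D489V 5, and the controls spanned 32 to 229. Agrn, the nerve's activator of Musk, which vessels and Schwann cells also make, read 810 to 1182 in knockout and 1141 to 1767 in D489V (-0.53, limma adjusted p 0.0181). Chrne, the adult receptor subunit, read 512 to 874 and 647 to 1277 (-0.62, limma adjusted p 0.0383). Chrne was not called without knockout 2, 3, 4 or 5, or without D489V 1, 2, 3 or 5, with limma adjusted p of 0.051 to 0.0994. The 6 calls of the list fell to 3 without knockout 3, knockout 5, D489V 1 or D489V 2, and to 2 without both samples numbered 3.

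Odc1, Amd1 and Smox, enzymes of polyamine metabolism, were higher in knockout, while Sat1, of the same metabolism, was lower. They belong to a list of 33 growth control genes, of which 7 were called higher and 8 lower, with a median of -0.11. Odc1, the enzyme that makes putrescine, read 2215 to 3629 in knockout and 1165 to 1878 in D489V (0.92, limma adjusted p 0.00401). Amd1, which supplies the aminopropyl group of spermidine, read 17900, 9014, 5920, 19101 and 21590 in knockout and 2360, 3478, 2169, 5470 and 3699 in D489V (2.02, limma adjusted p 0.00516). Controls spread over both groups for Amd1, from 2463 in control 1 to 21161 in control 5. Amd2 is a near-identical copy, so the share of reads each received is uncertain. Smox, the spermine oxidase, read 3522 to 20865 and 2073 to 4743 (1.34, limma adjusted p 0.0396), and its call was lost without knockout 1, 4 or 5 or without any 1 of D489V 1, 2, 3 and 5, with limma adjusted p of 0.0557 to 0.0901.

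The growth control genes lower in knockout were mostly of the BMP, activin and IGF pathways. Id1, a target of BMP signalling, read 443 to 512 in knockout, 553 to 806 in controls and 880 to 1493 in D489V, in 3 separate ranges (-1.20, standard error 0.13, limma adjusted p 6.20e-04). Id3 read 474 to 638 and 839 to 1195 (-0.87, limma adjusted p 0.00247), and Inhbb, an activin subunit, 34 to 58 and 70 to 146 (-1.13, limma adjusted p 0.00855). Igfbp3, a carrier of IGF1, read 498 to 1052 and 997 to 1489 (-0.78, limma adjusted p 0.0118), with knockout 2 above D489V 4 as the single crossing. Fst, Bmp4, Igf1r and Sat1 were the remaining lower calls. The list had between 10 and 16 calls when any 1 sample was left out.

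**Figure D4:**
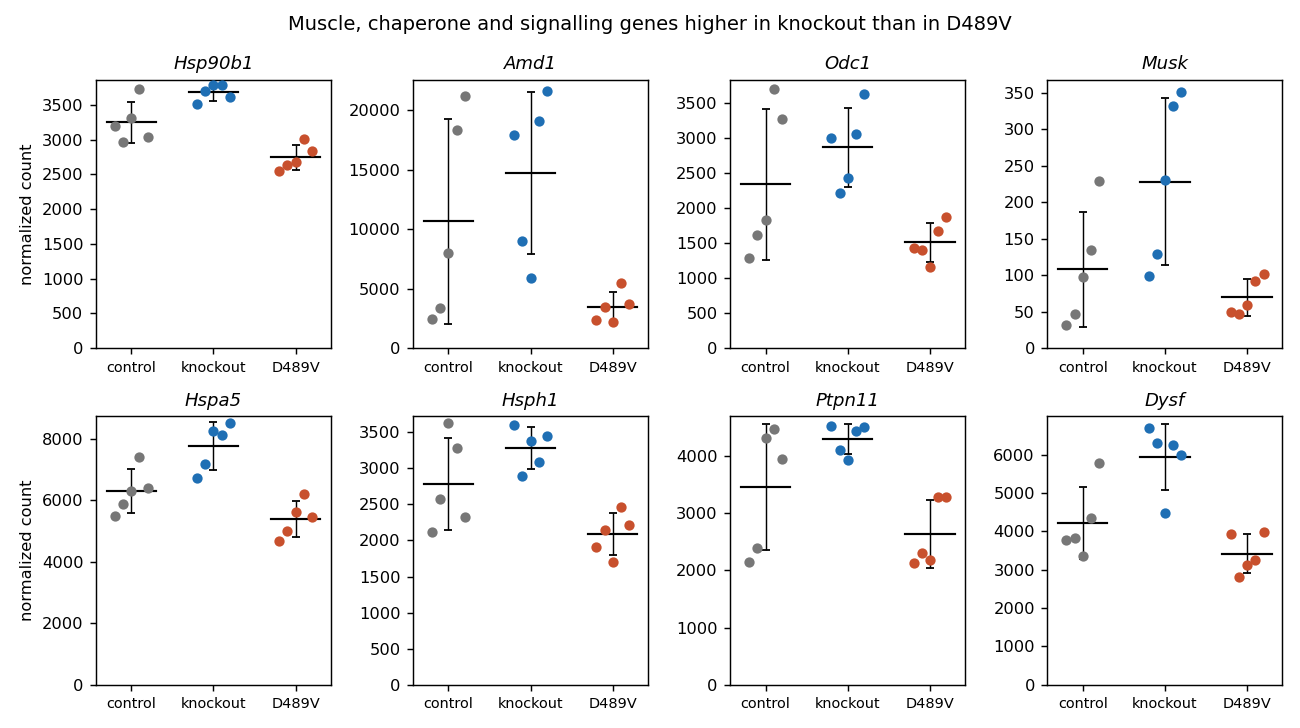
Normalized counts of 8 genes in the 5 control, 5 knockout and 5 D489V samples, with 1 point a mouse, the mean as a line and its SD as a bar. The knockout points lie above all D489V points for each gene except Musk, where knockout 1 (99) lies below D489V 5 (102), and Hsp90b1 runs from 3516 to 3793 in knockout and 2552 to 3015 in D489V.

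Pttg1 had the largest difference among the called genes that differed by more than the range of the controls. Pttg1 (ENSMUSG00000020415, chromosome 11, 43420250 to 43426251, minus strand) encodes securin, which inhibits separase, the protease that cuts cohesin at anaphase. It read 60, 52, 43, 102 and 63 in knockout and 1207, 688, 1210, 564 and 986 in D489V, a 14.3-fold difference on the log2(value + 1) scale (-3.84, standard error 0.257, limma adjusted p 1.56e-05). Controls, at 538 to 1294, covered the D489V range. The rest of the cell cycle list did not follow: of 40 tested, Pttg1 was the single gene called lower, 5 were called higher, and the median was 0.61. Top2a, the topoisomerase of dividing cells, read 59, 182, 143, 150 and 126 in knockout and 44, 19, 78, 53 and 51 in D489V (1.45, limma adjusted p 0.0196). Controls, at 117 to 317, overlapped knockout and lay above every D489V sample. Mki67 read 44 to 246 and 53 to 128 and was not called (0.78, limma adjusted p 0.189). Calls in the list numbered 17 without knockout 1, the sample with the lowest Mki67, and 3 without knockout 5.

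Among the remaining genes with the largest differences, those higher in knockout varied widely among controls. Nt5c1a, a nucleotidase that makes adenosine from AMP in muscle, read 142 to 233 in knockout and 11, 35, 11, 126 and 93 in D489V (2.50, limma adjusted p 0.0161). D489V 4 and 5 lay near knockout 1, and controls 1 and 2, at 22 and 14, lay with D489V 1 to 3 while controls 3 to 5 held 124 to 155. Plekhb2 showed the same order, with 1493 to 1986 in knockout, 267 to 304 in D489V 1 to 3 and 792 and 593 in D489V 4 and 5 (2.02, limma adjusted p 0.00196). Nxpe4, Gm4841, Il4i1, Lynx1, Neto2, Tfcp2l1 and Best3 differed by 2.32, 1.77, 1.72, 1.70, 1.69, 1.67 and 1.57. Il4i1 shares exon sequence with Nup62 on the same strand. Gm4841 was the steadiest in D489V, at 419 to 515 against 966 to 2970 in knockout, with 1 control, at 1539, among knockout. This gene lies on chromosome 18, at 60268305 to 60273272, within 5 Mb of Pdgfrb.

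How the differences compared with the spread among control mice was examined for every called gene. Of the 3181, 711 (22.4%) differed between the groups by more than the highest control differed from the lowest, which is 4.65% of all tested genes. Called or not, 8.16% of the tested genes did so. Of the 711, 448 were lower and 263 higher in knockout, but with upper-quartile rescaling, which moved the median of all genes by -0.05, the split was 602 and 159. The median range of the controls was 0.8 on the log2 scale over the called genes and 0.68 over all genes, so called genes were also somewhat more variable among controls. With the control farthest from the median of each gene left out, the range can only shrink, and 1777 called genes (55.9%) and 27.5% of all tested genes exceeded it. The count of 711 was 393 without D489V 1, 439 without D489V 2 and 455 without both samples numbered 3.

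**Figure D5:**
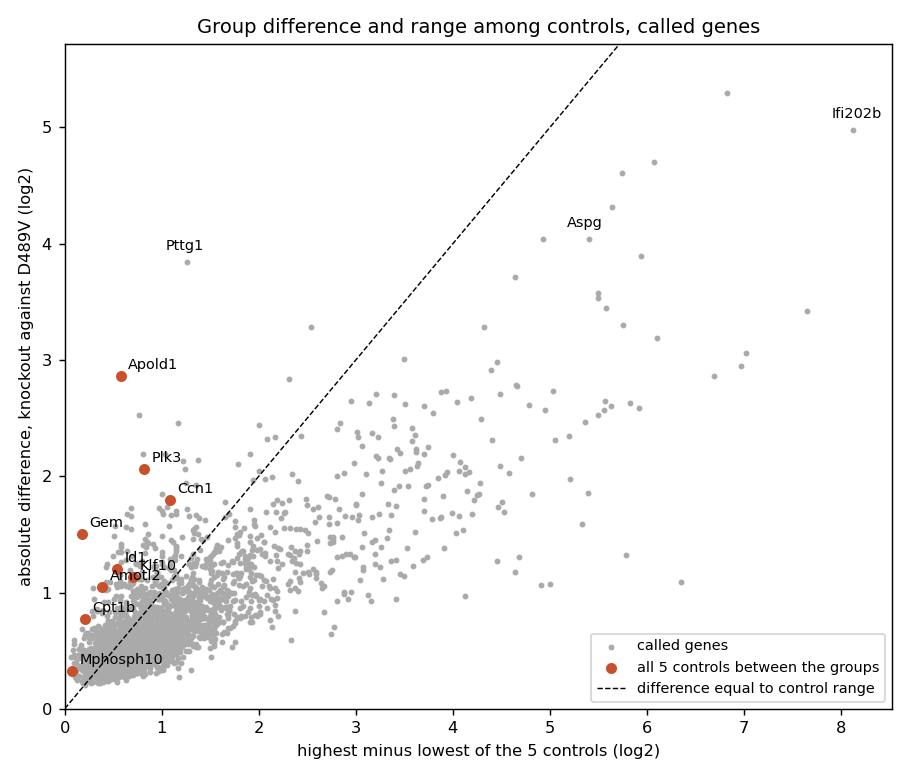
Absolute log2 difference between knockout and D489V against the range of the 5 controls (highest minus lowest, log2) for the 3181 called genes (grey), with the 9 genes whose 5 controls all lie between the groups in orange. Genes above the dashed line, 711 in all, differ more between the groups than the controls do among themselves, and Pttg1 and Apold1 stand furthest above it among the labelled genes while Ifi202b and Aspg lie below it.

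In 9 genes (0.0588%) all 5 controls lay strictly between the 2 groups. They were Apold1, Plk3, Ccn1, Gem, Id1, Klf10, Amotl2 and Cpt1b, lower in knockout, and Mphosph10, higher in knockout. Plk3, Gem and Mphosph10 were named after their values were seen. Plk3, a stress kinase of the early response, read 35, 52, 65, 57 and 32 in knockout, 83 to 147 in controls and 185, 251, 233, 168 and 164 in D489V (-2.06, limma adjusted p 5.98e-04). Gem, a small GTPase induced by mitogens, read 43 to 113 in knockout, 123 to 139 in controls and 149 to 201 in D489V (-1.50, limma adjusted p 0.00403). Klf10, a TGF-beta early response factor that also cycles with the clock, read 559 to 650, 664 to 1080 and 1188 to 1615 (-1.13, limma adjusted p 1.81e-04). Cpt1b, which carries fatty acids into muscle mitochondria, read 126 to 139, 152 to 176 and 221 to 246 (-0.77, limma adjusted p 0.00162), and its exons overlap those of Gm44502 on the same strand. Mphosph10, of ribosomal RNA processing, read 618 to 807 in knockout, 558 to 589 in controls and 525 to 552 in D489V (0.33, limma adjusted p 0.0263).

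Of several other cell types, no tested marker was called. None of the 18 fibroblast, 17 tendon, 18 macrophage, 6 mast cell and granulocyte, 11 B cell, 8 T cell or 2 high endothelial venule genes tested was called by limma. An unadjusted p under 0.05 was reached by 3 fibroblast genes, all lower, 3 tendon genes, all higher, and 1 gene of the mast cell and granulocyte list, and by 0 in the other 4 lists. Col1a1 read 88555, 74139, 15696, 49854 and 49833 in knockout and 26522 to 48932 in D489V (0.31, limma adjusted p 0.58), and knockout 3 was far below its group. Of 26 collagens, Col20a1 was the single call, lower by 0.76 on the log2 scale. Without knockout 3 the collagens had 4 calls, 3 of them higher, the fibroblast and tendon lists had 2 each, all higher, and the macrophage list had 1, higher. The B cell list had a median of 1.74 with no call, and its median control range was 7.53. Of the satellite cell and myogenic genes, 4 of 25 were called higher and 1 lower, and the list had 0 to 3 calls without knockout 1, 3, 4 or 5, or without D489V 1, 2 or 3. Pax7, the factor of satellite cells, read 112 to 193 in knockout and 133 to 189 in D489V (-0.23, limma adjusted p 0.349).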

How the data were processed

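RNA of whole skeletal muscle was measured by poly(A) sequencing with a directional kit, per the labels' protocols. Trim Galore 0.6.0, cutadapt, FastQC, STAR 2.7.0e, DESeq2 1.26.0 and GRCm38 are named in the submitters' processing notes, without their settings, and whether counting used strand is not given in the sources used here. Each deposited value is a score, a count per gene after the authors' normalization and rounding, in 2 tables of 55536 genes whose 5 control columns were identical. Median ratios of the samples to their geometric mean were 1.0069 to 1.0097, so the tables shared a scale and were joined by gene identifier. Raw depth is unknown, so no count model was used.

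Genes that reached 10 in 5 or more of the 10 samples were fitted with limma 3.58.1 in R 4.3.3 on log2(value + 1), two-sided, with eBayes and its variance trend. Differences are knockout minus D489V on that scale, which understates changes of low genes. The threshold was a Benjamini-Hochberg adjusted p under 0.05 over all 15299 genes. An exact permutation test of 5 against 5 cannot go below 0.0079. All 55536 identifiers matched GENCODE M21, which gave names and coordinates. On simulated data with a known log2 change of 1, 67 of 98 genes (68.4%) were recovered, and of 2, 92 of 100. Of 15064 genes in all, 7 unchanged ones were called. Each simulated gene varied independently, whereas genes of a list varied together between these mice. The share of false calls in the real data was therefore not measured.

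The members, the lists and the tests were chosen with earlier results of these data known, and some lists share genes. Named are the PDGF family, the 10 genes with the largest difference in each direction (called, protein-coding, no overlap, mean of 50 or more) and at most 4 called members of a list. Further genes named, among them Junb, Klf2, Zfp36, Cdh5, Pecam1, Erg, Odc1, Dmd, Utrn, Id1, Id3, Hsp90b1, Pdia6, Dnajb1, Notch1, Sox10, Mbp, Plk3 and Gem, were chosen after their values were seen. Some genes that the rule names are not reported here. Alternatives used other pseudocounts, filters, scalings (among them trimmed means of M values, TMM), variance models and weights, added controls or a replicate block, and left out samples. Python 3.11.15, pandas 2.3.3, numpy 2.4.6 and matplotlib 3.10.9 were used for tables and plots.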

Additional observations from a re-analysis of the deposited data

Results flagged for a closer look

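Each value of a group of 5 samples was checked for a sample far from the other 4 (a gap above 0.71 of the group's range), over 390 groups of named genes, lists and Xist. A far sample was found in 36, where chance gives about 19.5, so single flags carry little weight, and values are log2(value + 1) for genes and median deviations in log2 units for lists. Many of them were in 2 libraries.

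Knockout 3 was low for Pdgfra (8.54 against 9.25 to 9.37), Vcl (11.41 against 11.85 to 11.94) and Dysf (12.12 against 12.55 to 12.71), and high for Best3 (9.53 against 8.55 to 8.70). Its mural cell list was at -0.43, its fibroblast list at -0.70 and its growth control list at -0.30, each below the rest of the group, while its core clock list, at 0.40, and its FoxO list, at 0.24, were above. Xist was at 11.63 in knockout 3 against 1.00 to 1.58 in the other knockout samples. Knockout 1 was low for Nt5c1a (7.16), Mcm5 (5.73) and Rps10 (4.17), knockout 5 high for Psmd14 (11.00) and Hspa4l (7.97), and knockout 2 low for the glucocorticoid list (-0.17).

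D489V 3 was low for Adrb3 (8.55 against 10.37 to 10.99), Ifi27 (10.41), Cox6a1 (9.75), Cox8a (9.74), Slc27a1 (12.11), Acat2 (7.85) and Srebf1 (11.43), and its adipocyte list was at -0.15 against 1.00 to 1.40. The same sample was high for Ncmap (8.97), Myh3 (9.51) and Ccn1 (11.61), and for the Schwann cell list (1.71 against 0.04 to 0.40) and the slow fibre list (1.78 against -0.33 to 0.00), with its core clock list low at -0.14. Nerve, fat and slow fibre genes thus departed together in this library. D489V 2 was low for Nxpe4 (3.81) and high for Cpt1b (7.95), and D489V 5 was high for Neto2 (6.02) and for the neuromuscular junction list (0.22). D489V 1 was low for the tendon list (-0.63) and the growth control list (-0.11).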

How the results depend on the processing

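The count of 3181 called genes depended most on which D489V mice were in the fit. It ranged from 1398 to 3686 when 1 sample was left out and was 1589 without both samples numbered 3, where 40.5% were higher against 50.3% in the full comparison. Pdgfrb kept its sign throughout, at 0.43 to 0.62 when 1 sample was left out, and missed the threshold with the replicate block (0.51, limma adjusted p 0.0643). Named genes called fell from 147 to between 95 and 143, and list genes called went from 272 to between 154 and 296. The count above the control range went from 711 to between 393 and 916, to 455 without both samples numbered 3 and to 1777 over 4 controls. Of the genes within 5 Mb of Pdgfrb, 16 were called, 7 to 23 when 1 sample was left out, 10 without a variance trend, 28 with array weights and 10 with the block. Fewer samples in the fit also mean less power. Over 147 called named genes besides Pdgfrb, 3370 values under alternatives gave 2929 calls kept, 441 lost and 0 reversed, and 79 genes were past the threshold in every alternative run. Uncalled genes changed sign in Pdgfc (0.08 in the full comparison, -0.04 to 0.22 when 1 sample was left out, below 0 without knockout 2 at -0.02 and without D489V 2 at -0.04) and Pdgfrl (0.16 without both samples numbered 3). Rescaling moved the median of all genes by at most 0.05, and with upper-quartile rescaling 1321 genes were called higher and 1825 lower. With the replicate block 2208 genes were called. Same-numbered samples did not deviate together (correlations 0.01, 0.10, -0.06, 0.05 and -0.11, with 1 of 5 samples closest to its own number), so the numbers were not taken as pairs.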

Other observations

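Interferon-linked genes differed gene by gene. Ifi202b, a DNA sensor of the Ifi200 cluster on chromosome 1, read 1, 0, 4, 28 and 21 in knockout and 238, 160, 233, 133 and 161 in D489V (-4.97, limma adjusted p 0.00372). Controls read 253, 186, 11, 0 and 278, so the gene was near 0 in 2 control mice. Of 10 tested genes of the cluster, 3 were called higher, 1 lower and 6 not called, with 4 differences below 0. The cluster had 2 calls instead of 4 without D489V 1. The 3 called higher were Mndal, Ifi205 and Ifi213: Mndal read 284 to 668 in knockout and 171 to 248 in D489V (0.92, limma adjusted p 0.0132), and Ifi205 and Ifi213 were higher by 0.99 and 2.46. Mndal shares exon sequence with Ifi203. Of 36 interferon-stimulated genes, 5 were called lower and 0 higher by limma, 14 and 0 at an unadjusted p under 0.05, and the interferon-stimulated list had between 0 and 10 calls when 1 sample was left out.

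Genes of the daily clock differed in both directions. Of 19 clock output genes, 7 were called higher and 4 lower, with 7 and 5 at an unadjusted p under 0.05. Of 17 core clock genes, 1 and 3 were called, with 6 and 4 at an unadjusted p under 0.05, and the core clock list had 2 calls without knockout 3, knockout 5 or D489V 1. Nfil3, a repressor whose level cycles, read 861 to 1212 in knockout and 419 to 664 in D489V (0.81, limma adjusted p 0.00564). Pfkfb3, which sets the level of the main activator of glycolysis, read 3150 to 7855 and 10249 to 18870 (-1.57, limma adjusted p 0.00325). Per2 read 118, 160, 591, 471 and 308 in knockout and 74 to 171 in D489V and missed the threshold (limma adjusted p 0.0644). The labels give no time of day for the samples, and its part in these values was not tested. The clock output list had 6 or 7 calls instead of 11 without knockout 4, knockout 5, D489V 1 or D489V 5.

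Energy and translation genes gave counts that depended on the processing. None of 14 mitochondrial genome genes passed in limma, with 1 at an unadjusted p under 0.05, and of 78 nuclear respiratory chain genes 2 were called higher and 2 lower. The respiratory chain list had 3 to 10 calls when 1 sample was left out, the most without D489V 4, and 11 with array weights. Ndufs1 of complex I read 14229 to 20208 in knockout and 7029 to 13799 in D489V (0.84, limma adjusted p 0.0165), while Cox6a1 read 510 to 1102 and 859 to 1945 (-1.15, limma adjusted p 0.0106). Of 79 cytosolic ribosome genes, 8 were called lower, close to the share over all genes, and the number was 0 without D489V 1, 2 or 3, 14 without D489V 4 and 23 with array weights.

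Called genes also differed in length. Of protein-coding genes with an exon length of 3385 bases or less, 6.58% were called higher and 11.3% lower, in the middle group 12.2% and 11.0%, and of those of 5921 bases or more 15.5% and 9.27%. The medians were -0.05, 0.03 and 0.08. Within 5 Mb of Pdgfrb, 16 of 73 tested genes (21.9%) were called, 12 of them higher, and within 5 Mb of Myog 19 of 92 (20.7%), against 20.8% over all genes.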
